A study of Homo sapiens with 15 samples.

Results

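Tight junction proteins seal the space between neighbouring epithelial cells, and the transcripts of 9 genes that encode them were examined here: the claudins CLDN1, CLDN4, CLDN7 and CLDN12, the membrane proteins OCLN and F11R, and the cytoplasmic plaque proteins TJP1, TJP3 and CGN. A probe was taken as a member when it was not a control spot and its RefSeq accession on the array belonged to one of these genes. This gave 11 probes of 8 genes out of 42405 non-control probes. No probe carried an accession that the RefSeq table gives for TJP3, so no value is given for it.

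RNA came from PE/CA-PJ41, an immortalised human oral squamous carcinoma cell line. The CYGB+ cells were transfected with pCMV6-Neo, a plasmid with a CMV promoter, carrying the human cytoglobin (CYGB) cDNA. Colonies that survived G418 were isolated with rings, and only one of these, LST421, is named in the study's methods for the arrays. The NCE (non-cytoglobin expressing) cells are labelled as carrying the empty vector, although in places the study calls them un-transfected. Both were kept for 24 h in supplemented medium before extraction, with no drug treatment in the labels. Each group had 3 biological replicates, extracted on separate occasions, measured on 3 arrays each for NCE (9 arrays) and 2 arrays each for CYGB+ (6 arrays). Because the arrays compare 1 clone with 1 control line, effects of the transgene and differences between clones cannot be told apart.

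Values are log2 green (Cy3) signals, quantile normalised over the 15 arrays, averaged first over the arrays of a biological replicate. Differences are CYGB+ minus NCE, so negative values are lower in CYGB+. GEO's labels put every sample in Cy3 whereas the study's methods name Cy5 for the control RNA, and the direction given here rests on the labels. The probe for CYGB itself did not separate the groups, with log2 levels of 12.85, 13.16 and 12.96 in NCE and 12.37, 13.42 and 13.01 in CYGB+ (difference -0.05 ± 0.27 SE, adjusted p = 0.92). It was above background on all 9 NCE arrays, at a mean of 12.99, although the study describes the parent line as not expressing cytoglobin. The reason was not tested. Whether that probe lies inside the transfected cDNA is not given in the sources used here. It therefore could not check the labels, and CYGB+ below means the samples labelled so. Slide 1 held 8 NCE arrays, and slide 2 held 1 NCE array with all 6 CYGB+ arrays, so slide and group could be separated only through that 1 NCE array. The first array of CYGB+ replicate 1 stood apart, with a median correlation with the other arrays of 0.903 against 0.953 to 0.978 for the others. Epithelial keratins were bright in both groups, and no tested epithelial, endothelial or leukocyte marker probe was called. COL3A1, PDGFRB, THY1, VWF and CD3E were above background on no array. CD68, a leukocyte marker, was above background on every array (mean 9.63 in NCE and 9.88 in CYGB+). The endothelial marker CDH5 was so on 6 of 9 NCE and 5 of 6 CYGB+ arrays. For the leukocyte marker PTPRC, the probe detected most often was so on 3 NCE and 2 CYGB+ arrays. The fibroblast list had 1 of its 5 probes called, COL1A2, lower in CYGB+ (-2.53 ± 0.21 SE, adjusted p = 0.00194). The other tested fibroblast probe, COL1A1, was at 0.23 ± 0.39 SE (adjusted p = 0.74). In NCE the mean log2 level was 8.44 for COL1A2 and 5.57 for COL1A1, so there the summed signal of the list was mostly COL1A2. The summed linear signal of that list ran from 389.2 to 470.0 in NCE and from 108.7 to 159.2 in CYGB+, and its part in the results below was not tested.

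Claudins are membrane proteins whose extracellular loops meet across the gap between cells and decide which solutes pass. Occludin (OCLN) and F11R, also called JAM-A, are further membrane proteins of the junction. TJP1 and TJP3, known as ZO-1 and ZO-3, and cingulin (CGN) form the plaque below the membrane that links these proteins to actin. In squamous epithelium the junctions lie in the upper layers, and several claudins change in level in carcinomas.

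CLDN1 was the only member called between the groups. CLDN4 and CLDN7 were the 2 other member claudins whose groups did not overlap, and they differed in opposite directions. Groups did not overlap for 3 of the 9 tested member probes, beside 33.4% of all 21328 tested probes. The 250 bases before the RefSeq start site are printed for these 3 genes. They are from RefSeq on GRCh38.p14, read 5′ to 3′ on the strand of the gene, at chr3:190322447-190322696 (minus strand) for CLDN1, chr7:73830746-73830995 (plus) for CLDN4 and chr17:7263214-7263463 (minus) for CLDN7. Capitals mark the GC box, GGGCGG or its reverse complement CCGCCC, a motif bound by SP-family activators. The E-box CACCTG, or CAGGTG on the other strand, is the core bound by the SNAI and ZEB repressors of epithelial genes and would be in capitals too.
CLDN1: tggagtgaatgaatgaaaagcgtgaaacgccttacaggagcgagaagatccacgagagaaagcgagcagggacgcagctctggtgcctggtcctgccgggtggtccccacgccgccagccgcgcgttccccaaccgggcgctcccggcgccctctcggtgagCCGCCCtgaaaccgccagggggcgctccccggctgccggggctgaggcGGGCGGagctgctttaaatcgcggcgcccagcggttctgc
CLDN4: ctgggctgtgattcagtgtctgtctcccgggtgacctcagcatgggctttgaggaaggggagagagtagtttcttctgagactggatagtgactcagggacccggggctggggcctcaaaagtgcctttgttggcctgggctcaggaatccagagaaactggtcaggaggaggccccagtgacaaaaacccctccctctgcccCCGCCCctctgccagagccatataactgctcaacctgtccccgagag
CLDN7: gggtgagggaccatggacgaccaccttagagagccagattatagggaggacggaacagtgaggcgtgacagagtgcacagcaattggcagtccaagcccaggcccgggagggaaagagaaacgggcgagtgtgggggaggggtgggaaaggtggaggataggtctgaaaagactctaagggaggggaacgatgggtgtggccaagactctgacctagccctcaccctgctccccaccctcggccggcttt
The CLDN1 window held 2 GC boxes and the CLDN4 window 1, and none of the 3 windows held an E-box. A second RefSeq start of CLDN7, not printed, had 4 E-boxes and 1 GC box in its 250 bases. Among 35116 RefSeq windows of this length, 17.5% held an E-box and 42.6% a GC box. These are matches of letters in one window and say nothing of binding.

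CLDN1, which encodes claudin-1, a barrier-forming claudin of squamous epithelium, fell in CYGB+. Its log2 level was 11.34, 12.11 and 12.50 in NCE replicates 1, 2 and 3, against 10.17, 9.66 and 10.43 in CYGB+ (probe A_23_P57784). The groups did not overlap, and neither did the single arrays, which ran from 11.29 to 12.72 in NCE and from 9.61 to 10.61 in CYGB+. The difference was -1.90 ± 0.33 (SE, n = 3 and 3, 95% interval -2.66 to -1.14), 3.73-fold lower in CYGB+, with a Benjamini-Hochberg adjusted p of 0.016 in limma. In size, 0.314% of the 21328 probes tested were at least as low, and by p it ranked 662nd. The call was lost without NCE replicate 2 (adjusted p = 0.0722) or NCE replicate 3 (0.0567), in the methods' t-test (0.0962) and with no filter on dim probes (0.0509). With slide as a block the difference was -1.54 (adjusted p = 0.0816) and within slide 2 it was -1.28 (0.34), where the single NCE array stood at 11.37.

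CLDN4 encodes claudin-4, a claudin of many simple and stratified epithelia. Its levels were 14.21, 13.59 and 13.69 in NCE and 13.52, 13.01 and 12.84 in CYGB+ (A_33_P3285545). Every CYGB+ sample lay below every NCE sample, but CYGB+ replicate 1 came close to the lowest NCE sample, and single arrays overlapped. The difference of -0.71 ± 0.25 (SE, 95% interval -1.28 to -0.14) did not pass (adjusted p = 0.115). With the replicate number as a block it did, at the same size (adjusted p = 0.0368, where 13.1% of all probes were called), and it also passed without the array that stood apart most (-0.79, adjusted p = 0.0383, 17.6% of all probes called). With slide as a block it was -0.98 (adjusted p = 0.132) and within slide 2 -1.12 (0.393).

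CLDN7, whose protein is found along the sides of epithelial cells as well as at the junction, was the only tested member with a value higher in CYGB+. Its levels were 8.56, 8.23 and 8.73 in NCE and 9.47, 9.05 and 8.94 in CYGB+ (A_23_P164284), and the groups did not overlap. The difference was 0.65 ± 0.21 (SE, 95% interval 0.16 to 1.14), with an adjusted p of 0.0992. With slide as a block it was 0.17, and within slide 2 it was 0.20 (adjusted p = 0.938 in both). The NCE array on slide 2, at 8.96, was close to the CYGB+ arrays there, which ran from 8.82 to 9.79. RefSeq also lists a pseudogene, CLDN7P1, and whether the probe could bind its transcript was not tested.

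**Figure D1:**
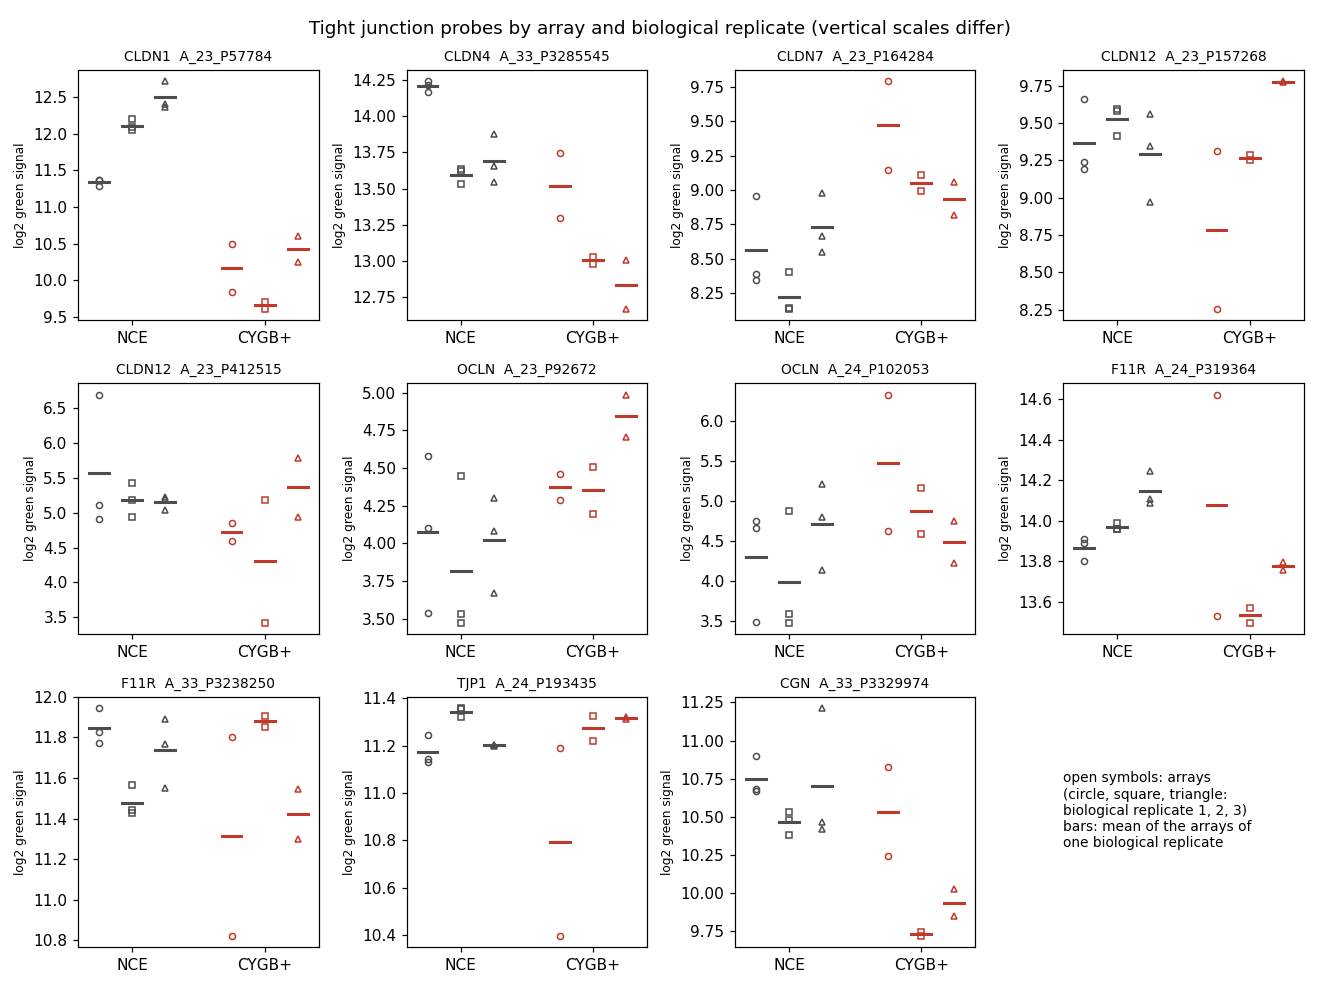
Log2 green signal (vertical axes, each with its own scale) of the 11 tight junction probes in NCE (grey) and CYGB+ (red). Open symbols are single arrays and bars the mean of the arrays of one biological replicate. CLDN1 shows a clear gap between groups, from 10.61 on the highest CYGB+ array to 11.29 on the lowest NCE array, whereas TJP1 and both F11R probes overlap.

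Only 1 NCE array shared a slide with the CYGB+ arrays, and any separation of slide from group rests on it. Without that array CLDN1 was at -1.89 (adjusted p = 0.0173), CLDN4 at -0.70 and CLDN7 at 0.71, close to the values with it. That fit cannot separate slide from group, since it has NCE only on slide 1 and CYGB+ only on slide 2. The array is also only 1 of the 3 averaged for NCE replicate 1.

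**Figure D2:**
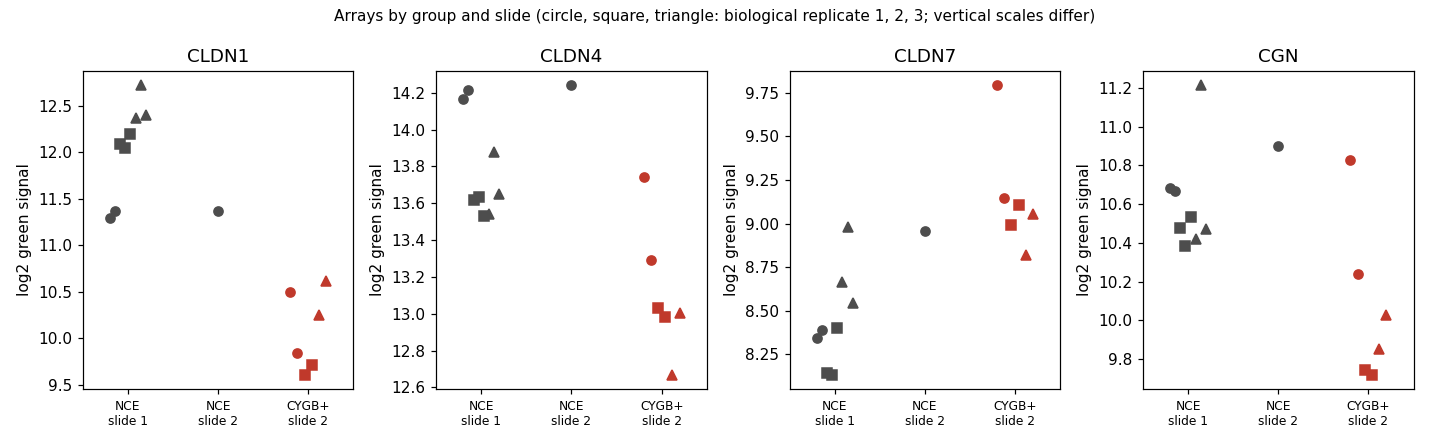
Log2 green signal of each array for CLDN1, CLDN4, CLDN7 and CGN, by group and slide (symbols give the biological replicate). The single NCE array on slide 2 lies above all 6 CYGB+ arrays of that slide for CLDN1, CLDN4 and CGN, and among them for CLDN7.

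CLDN12, a claudin without the C-terminal motif that binds ZO proteins, had 2 probes, neither of which passed the test. The brighter, A_23_P157268, read 9.36, 9.53 and 9.29 in NCE and 8.78, 9.27 and 9.78 in CYGB+, with full overlap (-0.12 ± 0.26 SE, adjusted p = 0.805). The dimmer, A_23_P412515, was above background on 8 of 9 NCE and 3 of 6 CYGB+ arrays and read 5.57, 5.18 and 5.15 against 4.72, 4.30 and 5.36 (-0.50 ± 0.28 SE, adjusted p = 0.293). The groups overlapped on the dim probe as well.

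OCLN, the first membrane protein of the tight junction to be identified, was dim. Its probe A_24_P102053 was well above background on 1 of 9 NCE and 4 of 6 CYGB+ arrays, and A_23_P92672 on 0 of 9 and 1 of 6. Neither was tested and no fold is given. A transcribed pseudogene, OCLNP1, is listed by RefSeq, and whether the probes could bind its transcript was not tested.

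F11R, an immunoglobulin-like adhesion molecule, was bright on both of its probes, neither of which passed the test. A_24_P319364 read 13.87, 13.97 and 14.15 in NCE and 14.08, 13.53 and 13.78 in CYGB+ (-0.20 ± 0.19 SE, adjusted p = 0.536). A_33_P3238250 read 11.85, 11.48 and 11.74 against 11.31, 11.88 and 11.42 (-0.15 ± 0.20 SE, adjusted p = 0.674). The samples overlapped on both probes, and the 95% intervals of the difference were -0.64 to 0.24 and -0.62 to 0.32. Without the first array of CYGB+ replicate 1, where A_24_P319364 read 14.62, its difference was -0.38 (adjusted p = 0.101) and that of A_33_P3238250 was 0.01.

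Of the plaque proteins, TJP1, the scaffold ZO-1 that binds claudins and actin, did not pass the test. Its levels were 11.17, 11.34 and 11.20 in NCE and 10.79, 11.27 and 11.32 in CYGB+ (A_24_P193435, -0.11 ± 0.19 SE, 95% interval -0.55 to 0.33, adjusted p = 0.741). The low CYGB+ value came from replicate 1, whose first array read 10.39 against 11.19 on its second. RefSeq lists a TJP1 pseudogene, TJP1P1.

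CGN, cingulin, which binds ZO-1 and myosin, was 10.75, 10.46 and 10.70 in NCE and 10.53, 9.73 and 9.94 in CYGB+ (A_33_P3329974). CYGB+ replicate 1 fell between the NCE samples and the other 2 CYGB+ samples lay below all of them. The difference of -0.57 ± 0.23 (SE, 95% interval -1.11 to -0.03) did not pass (adjusted p = 0.163). Without CYGB+ replicate 1 it was -0.80 (adjusted p = 0.0378), and without only its first array -0.67 (0.0342). Within slide 2 it was -0.83 (0.603).

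**Figure D3:**
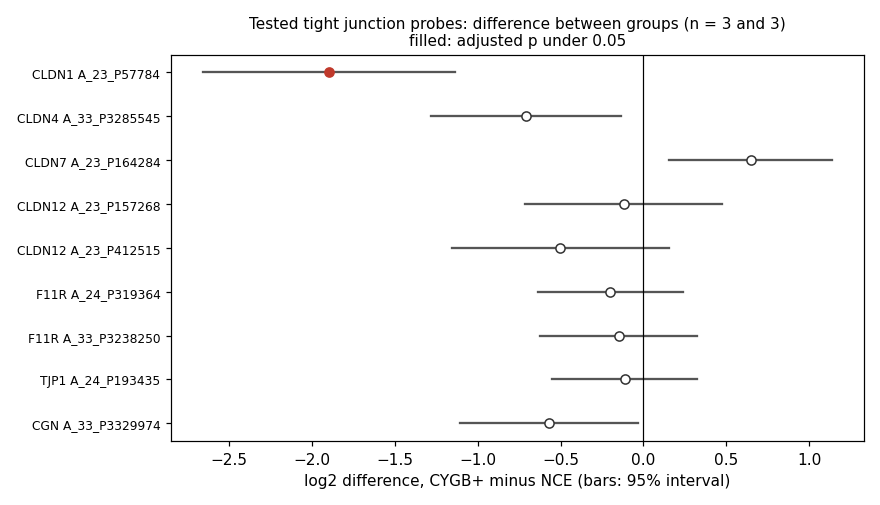
Difference in log2 green signal between CYGB+ and NCE (horizontal axis) for the 9 tested probes, with 95% intervals from limma. The only filled point, CLDN1 at -1.90, passed the adjusted threshold, and CLDN7 at 0.65 is the only point to the right of 0.

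Across the members, 9 probes of 7 genes were bright enough to test, meaning well above background in at least 3 of the 6 biological samples. One probe, CLDN1, was called lower and none was called higher, which is 11.1% of the 9, beside 8.89% of all 21328 tested probes (4.21% lower, 4.67% higher). CLDN1, CLDN4 and CLDN7, 3 of the 9 probes, had groups that did not overlap, against 33.4% of all tested probes (16.7% in each direction). The members' median difference was -0.20, against -0.01 over all tested probes, and 8 of the 9 values were below 0, against 51.1% of all tested probes. That number was 7 with normexp background correction and no dye normalisation, and 6 without CYGB+ replicate 1. It was 5 without the 1, 3 or 4 arrays that stood apart most, where TJP1, F11R A_33_P3238250 and CLDN12 A_23_P157268 also had small positive values. Without the first array of CYGB+ replicate 1, 3 member probes were called lower (CLDN1, CLDN4 and CGN) where 17.6% of all probes were called. Without the 3 arrays that stood apart most, 5 were called, CLDN1, CLDN4, CGN and the dim CLDN12 probe lower and CLDN7 higher, where 22.8% of all probes were called.

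The remaining claudins were mostly dim. Of 21 probes of 19 other claudin genes, 16 were not tested, 10 of the 21 being above background on no array, and 0 of the 5 tested were called at an adjusted p under 0.05 in limma. CLDN23 came nearest, at 7.70, 7.65 and 7.63 in NCE and 6.76, 7.24 and 7.01 in CYGB+ (-0.66 ± 0.17 SE, adjusted p = 0.0554). CLDN11, a claudin of myelin and Sertoli cells, was bright and read 11.90, 12.57 and 12.70 against 13.16, 12.46 and 12.94 (0.46 ± 0.27 SE, adjusted p = 0.314). The median difference over these 5 probes was close to that of all tested probes (-0.015 beside -0.011).

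Among the other membrane proteins of the junction, CXADR, the coxsackievirus and adenovirus receptor and an adhesion molecule related to F11R, fell on both of its probes. A_23_P57268 read 8.07, 8.23 and 8.55 in NCE and 7.02, 6.46 and 6.87 in CYGB+ (-1.50 ± 0.21 SE, adjusted p = 0.00913), and A_24_P374943 read 7.47, 7.22 and 7.64 against 6.19, 5.79 and 5.99 (-1.46 ± 0.18 SE, adjusted p = 0.00646). The CXADR groups did not overlap on either probe. These were 2 of the 8 tested probes, and the median of the 8 was -0.27. The tricellular proteins MARVELD2 and ILDR1 had differences of -0.26 and -0.45 and did not pass.

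The plaque and polarity proteins leaned the other way in value, with 14 of 20 tested probes above 0 and a median of 0.20. The only one called was PARD6B, a subunit of the PAR polarity complex, and it was lower, at 8.11, 8.53 and 8.76 in NCE and 7.12, 7.28 and 7.71 in CYGB+ (-1.09 ± 0.23 SE, adjusted p = 0.032). YBX3, the ZO-1 associated factor ZONAB, gave -0.59 on one probe and 0.07 on the other.

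In the adherens junction, the belt below the tight junction, 3 of 17 probes were called, 2 lower and 1 higher. CDH3, P-cadherin, read 13.65, 13.78 and 13.77 in NCE and 12.25, 12.92 and 12.73 in CYGB+ (-1.10 ± 0.20 SE, adjusted p = 0.0199). NECTIN2, an adhesion molecule, fell by 0.79 on one probe (adjusted p = 0.0474) and was at -0.45 on the other. CTNNA1, alpha-catenin, which ties cadherins to actin, rose by 0.93 on one probe (adjusted p = 0.0168) and had a value of 0.61 on the other (0.0577). CDH1, E-cadherin, was at -0.28 ± 0.18 SE (adjusted p = 0.349).

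Of the transcription factors known to act on junction genes, 2 of 10 tested probes were called, both lower. GRHL1, a grainyhead-like activator of epithelial junction genes, read 8.76, 8.83 and 8.74 in NCE and 7.49, 7.64 and 7.98 in CYGB+ (-1.07 ± 0.17 SE, adjusted p = 0.0131). OVOL2, a factor that maintains epithelial identity, read 10.67, 10.77 and 10.68 against 10.03, 9.94 and 10.03 (-0.71 ± 0.14 SE, adjusted p = 0.0264). Both had groups far apart relative to the spread. Related factors varied, with GRHL2 at -0.60 on one probe (limma adjusted p = 0.0727) and -0.055 on the other (0.892), and OVOL1 at 0.44 (0.237). Over the 10 tested probes of this list 4 values were above 0 and 6 below, with a median of -0.08. The repressors named with the E-box above did not pass or were dim, with SNAI2 at -0.65 ± 0.35 SE (adjusted p = 0.274), SNAI1 at -0.10 (0.725), and no ZEB1 or ZEB2 probe bright enough to test. The ZEB1 probe A_33_P3374723 was well above background on 1 of 9 NCE and 4 of 6 CYGB+ arrays, and no fold is given. The other ZEB1 probe was so on 0 arrays of either group. In all, 8 of the 60 tested probes in these 5 lists were called, 7 lower and 1 higher, beside 8.89% of all tested probes (4.21% lower, 4.67% higher), the share to set beside each list's own count as well. With slide as a block 1 of the 60 was called, beside 3.08% of all probes.

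**Figure D4:**
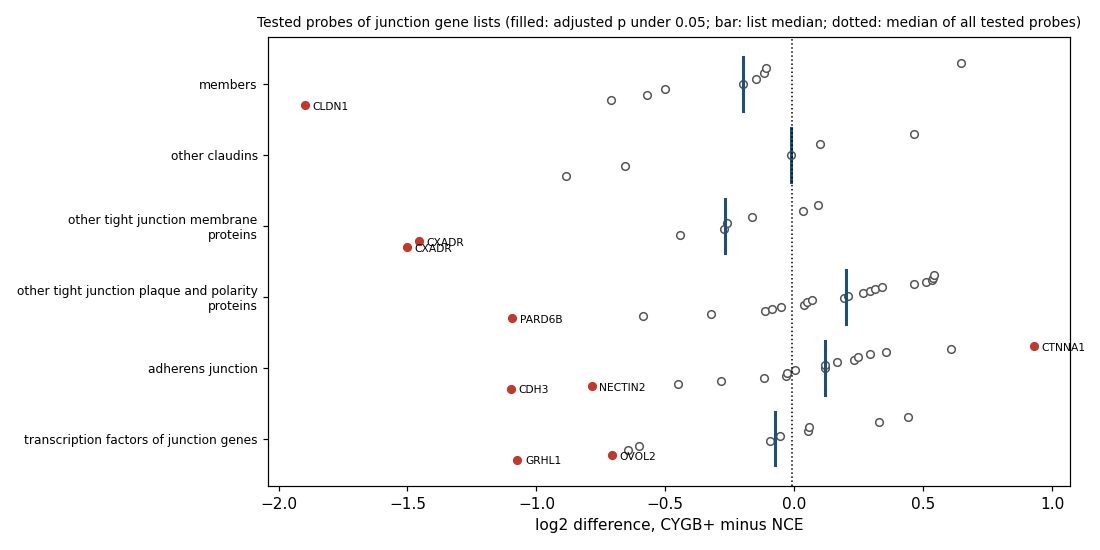
Difference in log2 green signal between CYGB+ and NCE for the tested probes of the tight junction members and of 5 related lists. Filled points passed the adjusted threshold and are named, bars are list medians and the dotted line is the median of all tested probes (-0.01). CLDN1 is the lowest point at -1.90, followed by both CXADR probes.

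The alternatives in processing left the direction of CLDN1, CLDN4, CLDN7 and CGN as it was in every setting run, while their calls moved. With the single arrays as units and the sample as a random block, 3 member probes were called, beside 21.8% of all probes. These were CLDN1 and CLDN4 lower and CLDN7 higher. With slide as a block, also on single arrays, none was called, beside 3.08%. Both fits used 1 correlation between repeats for all probes (0.2228 and 0.2239). CLDN4 repeats lay close together, at 14.16, 14.22 and 14.24 in NCE replicate 1 and 13.62, 13.63 and 13.53 in replicate 2. For such probes repeats count almost as separate samples, so these p-values can be too small. Without the 4 arrays that stood apart most, CLDN1, CLDN4 and CGN were called lower and CLDN7 higher, beside 22.7%. With normexp background correction and no dye normalisation CLDN1 was called lower and CLDN7 higher, beside 11.1%.

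**Figure D5:**
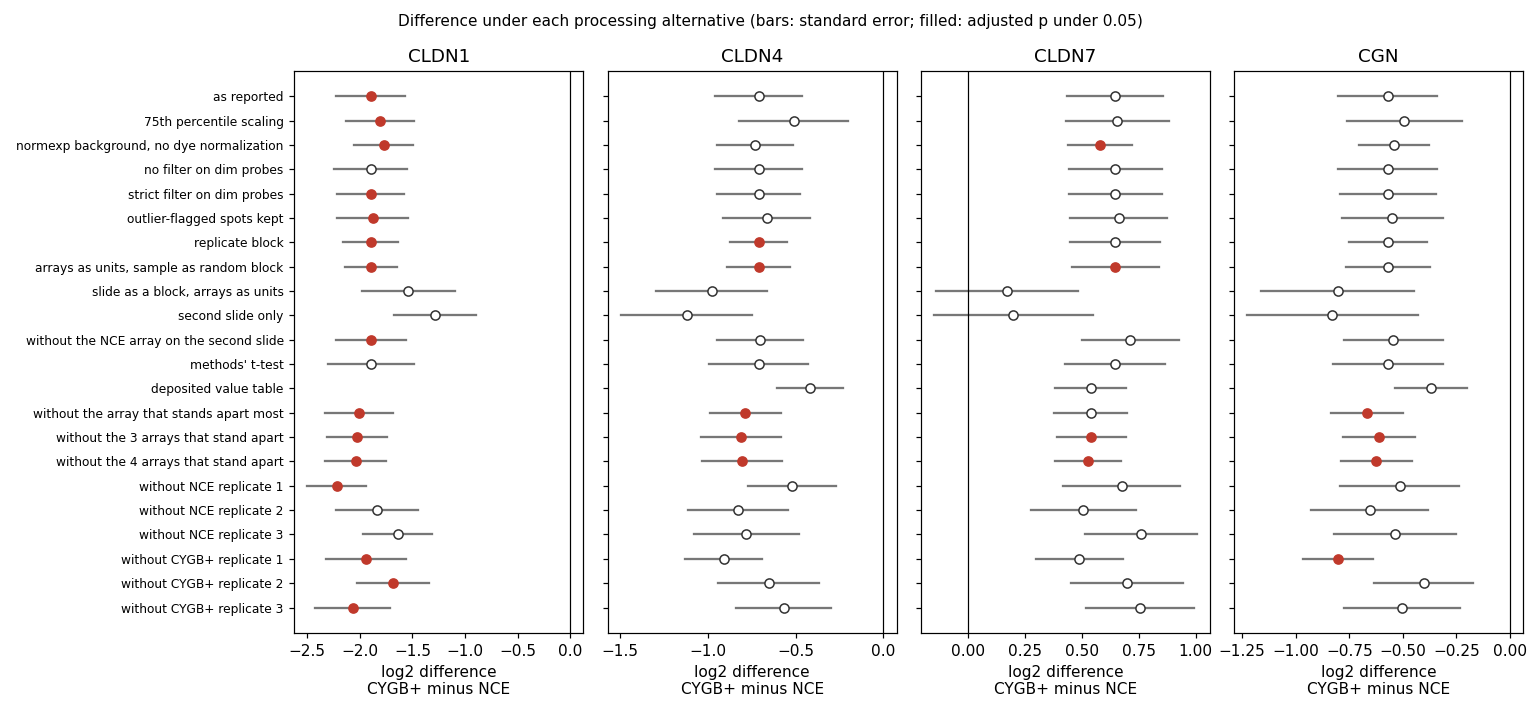
Log2 difference between CYGB+ and NCE (horizontal axes, bars are the SE) for CLDN1, CLDN4, CLDN7 and CGN under each way of processing, with filled points past the adjusted threshold. CLDN1 ranged from -2.22 to -1.28 and CLDN4 from -1.12 to -0.42, and CLDN1 has no point for the deposited value table.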

How the data were processed

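Total RNA (50 ng per labelling) was hybridised to Agilent SurePrint G3 Human 8x60K arrays, read with Feature Extraction 10.7.3.1. The deposited scanner files hold the green intensity after background subtraction and dye normalisation per the file headers. The authors also deposited a value table on a log2 scale, centred per probe on a reference that is not stated (column medians -0.161 to 0.183), used only as an alternative. What the red channel holds is not given in the labels.

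Outlier-flagged spots were dropped, spots of a probe averaged as log2 values, the 15 arrays quantile normalised as in the study's methods, and array repeats averaged, giving 3 samples per group. Of 26310 probes with a RefSeq accession, 25420 matched a symbol. Probes well above background in at least 3 of 6 samples (21328) were tested with limma 3.58.1 in R 4.3.3, two-sided, adjusted by Benjamini-Hochberg over all of them and called under 0.05. The script was tested on simulated data. The 3 biological replicates per group limit the precision.

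The reported fit did not pair the samples by biological replicate number, which came from the titles. Only the replicate block, an alternative, did so. Same-numbered deviations from the group means correlated at 0.230, 0.280 and 0.317. Pairs of different numbers ran from -0.506 to 0.245, so the highest of them exceeded the first. Nothing in the labels says that the replicates were separate cultures, so p-values measure the spread between these samples. Members and lists were chosen with earlier results of these data known. All member probes are named, and of each list the called probes and a few of the largest differences, and CDH1 and SNAI1, named after their values were seen. Alternatives covered scaling, background, filters, the methods' t-test, blocks by replicate and slide, the value table and leaving out each replicate. The background alternative was normexp with offset 50 on median signals, as mean signals are not used here. It also left out the dye normalisation, so it changed both steps at once. Leaving out arrays that stood apart was chosen after seeing the data.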

Additional observations from a re-analysis of the deposited data

Results flagged for a closer look

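In 22 groups of arrays (11 probes in 2 groups), 5 single arrays lay far from the rest of their group relative to its range. How many would be flagged by chance was not tested, since each group mixes repeats of the same samples. Of these, 4 were on the first array of CYGB+ replicate 1, the array with the lowest median correlation with the others. On it CLDN7 read 9.79 (nearest other array 9.15), F11R (A_24_P319364) 14.62 (nearest 13.8), TJP1 10.39 (nearest 11.19) and CLDN12 (A_23_P157268) 8.25 (nearest 9.25). The fifth was the first array of NCE replicate 1, where the dim CLDN12 probe A_23_P412515 read 6.69 (nearest 5.42). Without the first array of CYGB+ replicate 1 the differences were 0.02 for TJP1, 0.06 for CLDN12 (A_23_P157268), -0.38 for F11R (A_24_P319364, from -0.20 with it) and 0.54 for CLDN7 (from 0.65), none past the threshold.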

How the results depend on the processing

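The difference of CLDN1 kept its sign in all 20 alternatives and that of CLDN4, CLDN7 and CGN in all 21, but the calls depended on the setting, and the cause was not tested. CLDN1 lost its call with no filter on dim probes, where more probes were tested (-1.898, adjusted p = 0.0509), with slide as a block (-1.539, 0.0816), on the second slide only, with 1 NCE array (-1.283, 0.34), and in the methods' t-test (-1.898, 0.0962). That test found 5098 probes, 2 of them members, under an unadjusted p of 0.05, and 667 probes and 0 members after adjustment. CLDN4 gained a call with the replicate block (-0.71, 0.0368), with arrays as units (-0.71, 0.00978), and without the 1, 3 or 4 arrays that stood apart most (-0.785, -0.81 and -0.803). CLDN7 gained one with normexp (0.579), with arrays as units (0.647), and without 3 or 4 such arrays (0.541 and 0.526). The fit with arrays as units has the limit given above for probes with close repeats. CGN gained one without 1, 3 or 4 such arrays (-0.667, -0.611 and -0.624), and the dim CLDN12 probe A_23_P412515 without 3 (-0.679). The sign turned, never past the threshold, for F11R A_33_P3238250 with normexp (0.01), in the deposited value table (0.058) and without 1, 3 or 4 arrays (0.013, 0.024 and 0.015), for TJP1 without 1, 3 or 4 arrays (0.021, 0.019 and 0.02), and for CLDN12 A_23_P157268 likewise (0.058, 0.004 and 0.012).

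Member probes called numbered 1 as reported, 2 with normexp, 2 with the replicate block, 3 with arrays as units, 0 with no filter, with slide as a block, on the second slide only, in the methods' t-test and in the value table (which holds 7 of the probes and no CLDN1), and 3, 5 and 4 without the 1, 3 or 4 arrays. Over all tested probes the count was 1895 as reported, 1196 with no filter, 4641 with arrays as units, 657 with slide as a block (60.9% of them lower, against 47.4%), 34 on the second slide, 667 in the methods' t-test, and 3746, 4862 and 4845 without 1, 3 or 4 arrays. In the related lists it was 8 as reported, 13 with normexp, 18 with arrays as units, 1 with slide as a block, 0 on the second slide, 3 in the methods' t-test, and 13, 17 and 17 without 1, 3 or 4 arrays. The replicate block changed no other member call than that of CLDN4, and raised the count over all probes to 2792, of which 1832 were among those reported.

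Leaving out each biological replicate in turn gave 0 to 2 member probes, 429 to 1751 of all probes and 2 to 7 in the related lists. The differences then ran from -2.219 to -1.641 for CLDN1, from -0.909 to -0.521 for CLDN4, from 0.488 to 0.759 for CLDN7, from -0.803 to -0.402 for CGN, from -0.369 to 0.128 and from -0.786 to -0.255 for the CLDN12 probes A_23_P157268 and A_23_P412515, from -0.207 to 0.055 for TJP1, and from -0.321 to -0.038 and from -0.339 to -0.068 for the F11R probes A_33_P3238250 and A_24_P319364. TJP1 and CLDN12 A_23_P157268 turned positive in these fits only without CYGB+ replicate 1. The calls of CLDN1 were lost without NCE replicate 2 or 3, and CGN was called without CYGB+ replicate 1. OCLN signal near background limits that gene to a statement of detection.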

Other observations

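The red signal of each array was not itself compared between the groups, since the labels do not say what it holds. The green values used were dye-normalised, and how far the red channel entered that step was not tested. The normexp alternative left the dye normalisation out and changed the background correction too. With it the differences were -1.774 for CLDN1, -0.732 for CLDN4, 0.579 for CLDN7 and -0.542 for CGN. Of the 9 tested member probes, 7 were below 0 with it, against 8 as reported. The red CLDN1 signal, dye-normalised log2 values without quantile normalisation, ran from 10.04 to 13.64 over the 15 arrays. On the NCE arrays it was 10.52, 10.04 and 10.54 on the first repeat of biological replicates 1, 2 and 3, between 11.83 and 12.77 on the second and 13.06, 13.42 and 13.64 on the third. On the CYGB+ arrays it was 10.43, 10.67 and 10.79 on the first repeat and 12.14, 11.41 and 11.08 on the second. CLDN4 also varied in the red channel, from 12.90 to 15.19. The rise by repeat was not particular to CLDN1. In NCE replicate 1 the red signal over repeats 1, 2 and 3 was 13.06, 14.17 and 15.19 for CLDN4. It was 10.26, 11.27 and 12.13 for CGN and 8.56, 8.90 and 10.70 for CLDN7. TJP1 showed no such rise there (11.99, 11.68 and 11.90).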
